A study of Gallus gallus with 4 samples.

Results

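The genes described are the 6 interleukin receptor genes IL2RA, IL2RG, IL9R, IL11RA, IL17RD and IL1RAP, in chicken ovary. The GO (gene ontology) population they belong to has 17934 genes and is not limited to genes detected in ovary. The 6 genes were found by name in the supplementary gene table of the study. They were followed by identifier through the deposited lists of differentially expressed genes. That table, as held here, marks all its genes as differentially expressed between P-F-O1 and P-F-O2, by the fold change or p-value criterion of the study. The members were therefore chosen by their early call, which is no finding.

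Ovaries of Ningdu Yellow chickens were taken from a sub-breed with early sexual maturity at 32 days (P-F-O1, pre-laying) and 103 days (P-F-O2, laying), and from one with late sexual maturity at 32 days (L-F-O1, pre-laying) and 153 days (L-F-O2). The sample labels call L-F-O2 laying, whereas the design text calls it pre-laying, so it is named here by its age. Each group had 1 library, 4 in all, made by mixing RNA of 5 ovaries in equal amounts, so no difference has a replicate check and no test between groups was possible. The early comparison sets P-F-O1 against P-F-O2, and the late comparison sets L-F-O1 against L-F-O2. Age and library, and laying state where it differs, cannot be told apart within either comparison. Between the comparisons, the sub-breed, the older age (103 against 153 days) and the libraries differ together and cannot be told apart either. Whether laying state at the older age also differs between them depends on which label of L-F-O2 holds. The tables give, for each GO term or KEGG pathway, the number and the identifiers of the genes called differentially expressed. They hold no expression level per library, no fold change and no direction, so it is not known here which receptor was higher at which age, the reads behind each call are not given in them, and the labelled tissue could not be checked against ovary markers.

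Interleukin receptors are membrane proteins that carry the signal of an interleukin into the cell, and most are assembled from several chains. IL2RA and IL2RG are chains of the interleukin-2 receptor, the former on activated and regulatory T cells, and the latter a gamma chain that the interleukin-9 receptor and others share. IL9R and IL11RA bind interleukin-9 and interleukin-11, and in mice the loss of IL11RA leaves females infertile because the uterine lining fails to develop in early pregnancy. IL1RAP is the accessory chain of the interleukin-1 receptor. IL17RD, known as SEF in zebrafish, damps fibroblast growth factor (FGF) signalling. In the ovary, interleukin receptors are known mainly from leukocytes, which gather there around ovulation and in regressing follicles, and also from some follicle cells.

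Both chains of the interleukin-9 receptor were called in both comparisons. IL2RG (ENSGALG00000005638) and IL9R (ENSGALG00000006394) were differentially expressed in the early and in the late comparison, each in all 6 early terms and all 10 late terms that hold it. IL11RA (ENSGALG00000005848) was also differentially expressed in both, in its 7 early and 12 late terms. IL17RD (ENSGALG00000005499) was differentially expressed in both as well, in the 1 early term and 3 late terms that hold it. In contrast, IL2RA (ENSGALG00000006335) and IL1RAP (ENSGALG00000007253) were differentially expressed in the early comparison but not in the late one. IL1RAP was in the gene lists of 13 late terms and was called in 0 of them. IL2RA was in the list of a single term, receptor activity, in which it was called early and not late. The lists repeat the call of a gene in every term that holds it. The number of terms therefore reflects annotation and makes no call stronger or weaker.

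**Figure D1:**
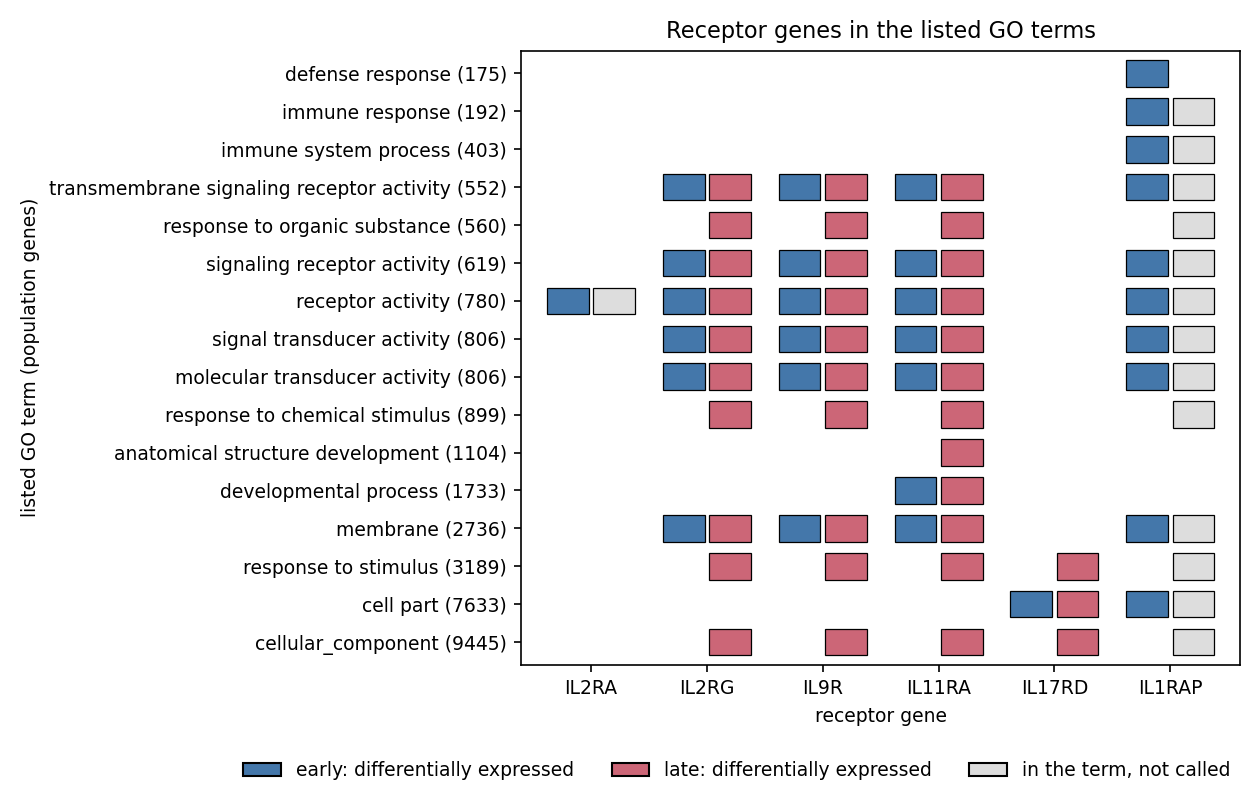
Each column is a receptor gene and each row a listed GO term, with its number of population genes in parentheses. The left box of a pair stands for the early table and the right box for the late table, a filled box for a call as differentially expressed, a grey box for a gene in the term that was not called, and no box for a term that is not listed in that table or does not hold the gene. The late boxes of IL2RA and IL1RAP are all grey, and those of the other 4 genes are all filled.

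These counts were close to what the lists give for genes at large. In the early comparison 28.1% of the population was differentially expressed, and in the late comparison 23.2%. Of the 3202 genes named by identifier as differentially expressed in the early comparison, 2037 (63.6%) were so in the late one. These 3202 are the early-called genes held by a listed GO term, out of 5037 early-called genes of the population. They are meant below by early-called genes at large, and the others could not be followed. The receptors, all called early by the rule, had 4 of 6 called late (66.7%), so the late calls do not set these genes apart from other early-called genes. A gene that was not called may still have differed between the ages by less than the criteria asked for, and these include a minimum expression level. The study reports more reads at the older age in both sub-breeds, and the part of read depth in the calls was not tested. The difference between the comparisons was not tested for IL2RA or IL1RAP.

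The receptors carried unequal annotation. A total of 16 listed GO terms held at least 1 of them, of which 10 were listed in both, 5 in the late table only and 1 in the early table only. IL1RAP was in 14 of these terms, IL11RA in 12, IL2RG and IL9R in 10 each, IL17RD in 3 and IL2RA in 1. Only IL1RAP was in immune response and in immune system process, so the numbers of immune genes in these tables include none of the other 5 receptors. Only IL11RA was in developmental process and in anatomical structure development. IL17RD was absent from receptor activity, which held the other 5.

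The terms that hold the receptors were mostly rich in differentially expressed genes. The tables list terms by the enrichment test of the study, so a share away from the background is partly how a term came to be listed. Of the 11 early terms, 10 lay above the 28.1% of the population, and of the 15 late terms, 13 lay above 23.2%. Receptor activity, which holds 5 of the 6 receptors, had 307 of its 780 genes differentially expressed early (39.4%) and 281 late (36%). Of the 307, 207 (67.4%) were also called late, as were 3 of the 5 receptors. In transmembrane signaling receptor activity, which holds IL2RG, IL9R, IL11RA and IL1RAP, the numbers were 226 and 202 of 552 genes (40.9% and 36.6%). Immune response, with IL1RAP, had the highest share among these terms in both comparisons, with 103 of 192 genes early (53.6%) and 80 late (41.7%). There, 33 genes were called early but not late, IL1RAP among them, and 70 were called in both. Cell part, the only early term below the population share, held IL17RD and IL1RAP and had 25.7% of its 7633 genes called.

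**Figure D2:**
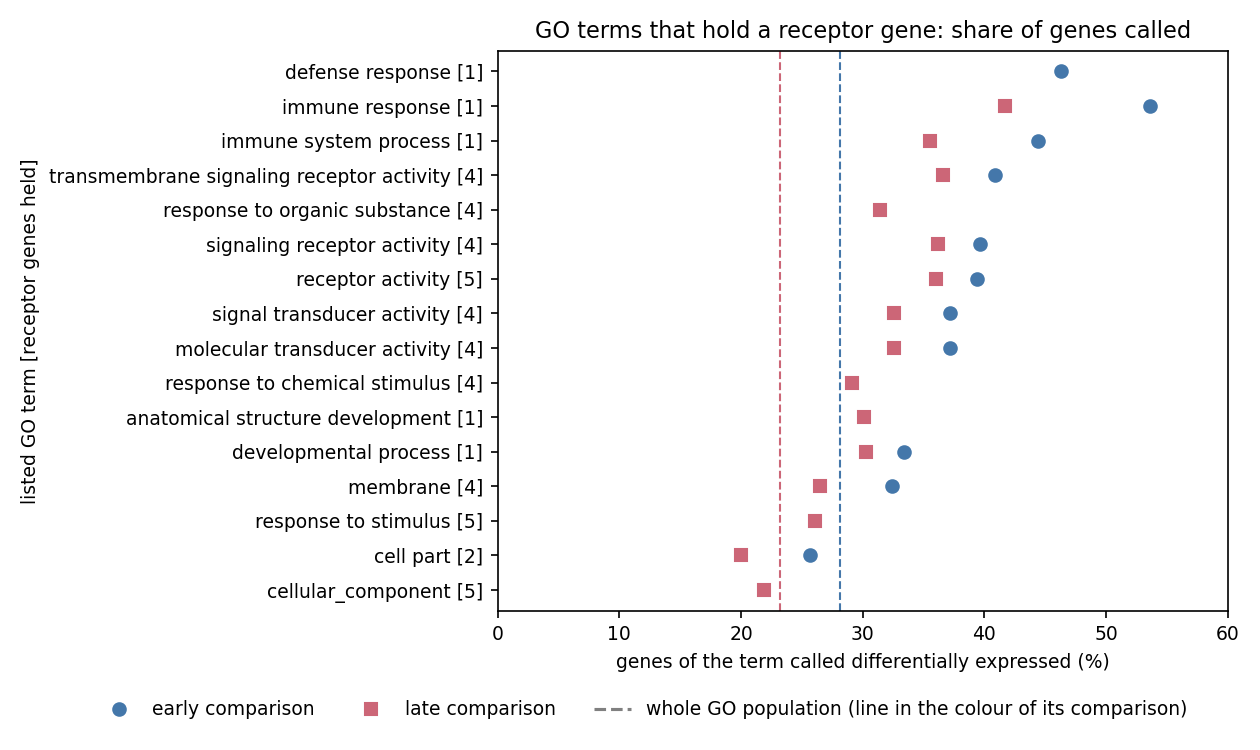
Share of the genes of each term that were called differentially expressed, in percent, for the GO terms that hold a receptor gene (number of receptors held in brackets). Circles are the early and squares the late comparison, and dashed lines mark the whole population at 28.1% and 23.2%. Immune response lies farthest to the right in both comparisons, and the broad terms at the bottom lie near or below the lines.

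The G-protein coupled receptors in receptor activity, none of which is among the 6 genes described, were called about as often as the rest. They numbered 330, of which 135 (40.9%) were differentially expressed early and 122 (37%) late. The other 450 genes, with 5 of the 6, had 172 (38.2%) and 159 (35.3%). A narrower set of 98 transmembrane signaling receptors that are also in response to organic substance held IL2RG, IL9R, IL11RA and IL1RAP, with 44 (44.9%) called early and 41 (41.8%) late. The 49 genes of receptor activity that are also in immune response include IL1RAP, and had 25 (51%) called early and 24 (49%) late. Of the 25, 21 (84%) were also called late, unlike IL1RAP. In the rest of receptor activity, 186 of 282 early-called genes (66%) were. These subsets were chosen after their values were seen, and the differences between them were not tested.

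By shared GO terms IL2RG, IL9R, IL11RA and IL1RAP fell close to each other, with IL2RA and IL17RD apart. Closeness of this kind was not particular to these genes, since other genes were as close to some of them, as given below. Likeness was measured by the Jaccard index, the number of terms that hold both genes divided by the number that hold either. IL2RG and IL9R had the same 10 terms (index of 1). IL11RA shared all 10 with each of them (0.833), and IL1RAP shared 10 with IL2RG and IL9R (0.714) and with IL11RA (0.625). IL17RD shared at most 3 terms with another receptor, and IL2RA shared none with IL17RD and 1 with each of the others. Of the 15 pairs, 6 reached an index of 0.5.

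The genes with a name that were nearest in annotation were then followed. Beside the receptors themselves, TNFRSF1B, a receptor of tumour necrosis factor, was nearest to IL2RG and to IL9R (0.833) and was not called in the late comparison. TLR21 and TLR15, Toll-like receptors of birds that sense microbial products, were nearest to IL1RAP (0.857), and both were called late although IL1RAP was not. GFRA1, a receptor of glial cell line-derived neurotrophic factor, was nearest to IL2RA, but with an index of only 0.333, and it was not called late either. The next was TMPRSS4, a membrane serine protease (0.167), also not called late. For IL17RD, 12 named genes had the same 3 terms, with RALGPS1 (not called late) and UNC5D (called late) first by identifier. With or without a name and leaving out the receptors, which the rule chose by their early call, 94 genes had exactly the terms of IL17RD. Of these, 27 (28.7%) were called early and 22 (23.4%) late, close to the 28.1% and 23.2% of the population. The 10 terms of IL2RG and IL9R were those of 5 further genes, of which 4 were called early and 3 late. Held by receptor activity alone, as IL2RA was, were 4 further genes, of which 3 were called early and 2 late. These last counts rest on too few genes to set against the population. IL1RAP shared its 14 terms with 2 further genes, neither of which was called in either comparison.

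Related genes of cytokine signalling were followed in the same way. Of 82 symbols in 5 lists, 26 had a name in the part of the gene table used here, and all 26 were differentially expressed in the early comparison because that table holds only such genes. Of them, 19 (73.1%) were called late, against 63.6% of early-called genes at large. The lists were chosen with earlier results of these data known, and the difference was not tested. The part of the gene table held here names 1539 identifiers, whereas 5037 genes of the population were called early. For the 56 symbols without a name, it is therefore not known whether the gene was called. The same holds for interleukin receptor genes other than the 6. Among other receptors of the IL2RG, IL9R and IL11RA type, CSF3R, the receptor of granulocyte colony-stimulating factor, and the growth hormone and prolactin receptors GHR and PRLR were called late, whereas the oncostatin M receptor OSMR was not. In the family of IL1RAP, SIGIRR, an inhibitory receptor of the interleukin-1 family, TLR2-1, TLR4, TLR15, TLR21 and the signalling protein TRAF6 were called late, and the kinase IRAK4, which acts below the interleukin-1 receptor, was not. IL1RAP and IRAK4 both lacked a late call, as did 36.4% of early-called genes at large, while 6 of the 7 genes of this list were called in both. A link between IL1RAP and IRAK4 was not tested.

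Of the list around IL17RD, 6 genes of the fibroblast growth factor family had a name, and 4 of the 6 were called late, near the 63.6% of early-called genes at large. The secreted factors FGF8 and FGF18 were called in both comparisons and FGF4 and FGF16 in the early one only. FGF12 and FGF13, which stay inside the cell and are not ligands of the receptors whose signal IL17RD damps, were called in both. Of the JAK-STAT list, which relays the signal of IL2RG, IL9R and IL11RA, only PIAS4, an inhibitor of STAT proteins, had a name, and it was not called late. Of the ligands, IL9, which IL9R binds, was called in both comparisons, as were IL4, IL12A, IL-12B, IL19 and LIF, and IL16 and IL18 were called early only.

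Markers of leukocytes were followed in the same lists, with few genes for each cell type. Their early call was fixed in advance, because the gene table used holds only genes called early, so only the late call could vary. Whether each gene marks its cell type alone was not checked. CD3D and CD3E, chains of the T cell receptor complex, CD28, a costimulatory receptor of T cells, and CD5 were not called late. Among the receptors the same held for IL2RA and IL1RAP, whereas IL2RG, IL9R, IL11RA and IL17RD were called late. CD79B and CD40 of the B cell list were called late, and so were CSF3R, TLR4 and CD74 of the myeloid list, where 63.6% of early-called genes at large were called late. CD7 and CD72 were not in any GO list, and CSF1R had no name in the table used. All 4 genes of the T cell list with an identifier in the GO lists lacked a late call, against 36.4% of early-called genes at large. The marker lists were chosen with earlier results of these data known. All 5 symbols of the T cell list had a name, against 26 of 82 symbols in the related lists. These 4 genes therefore do not stand for T cell genes in general. The difference between the marker lists was not tested. The part of T cells in the calls of IL2RA or of any other receptor was not tested. In whole ovary, a change in the number of cells of a type and a change in RNA per cell cannot be told apart.

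**Figure D3:**
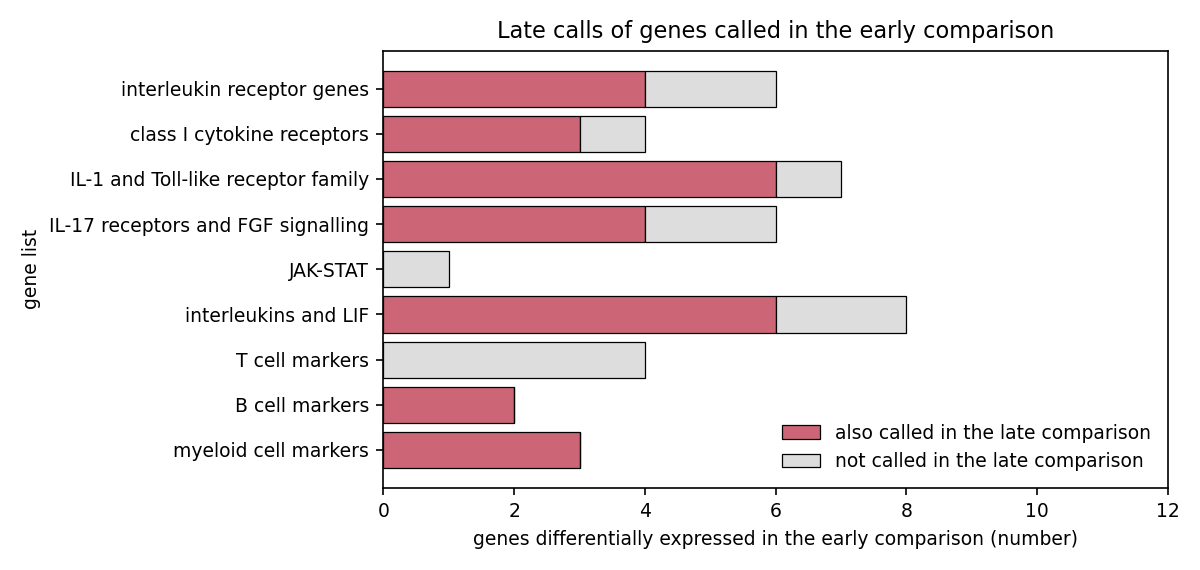
Number of genes differentially expressed in the early comparison in each list, split by whether they were also called in the late comparison (coloured) or not (grey). CSF3R and TLR4 stand in 2 lists each. CD7 and CD72, which no GO list holds, are not shown. All 4 genes of the T cell marker list that are shown are grey, and all those shown of the B cell and myeloid marker lists are coloured. The interleukin receptors are 4 coloured and 2 grey.

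None of the 6 receptors was in a gene list of the KEGG tables. These lists cover few genes, with 156 identifiers over 69 pathways early and 132 over 68 pathways late. Of the 156, 151 had a lower number than IL17RD, the lowest-numbered receptor, and 0 lay between IL17RD and IL1RAP, the highest-numbered one. In the late table these numbers were 128 and 0 of 132. In the GO lists, by contrast, 317 of 3202 early-called and 275 of 2620 late-called identifiers lay in that range. No called gene numbered in that range, receptor or not, was in a KEGG list. Cytokine-cytokine receptor interaction had 6 of 10 background genes called early and 5 of 10 late, of which 4 in both, and the named ones were CSF3R, IL-12B and the chemokine CCL4 in both, and TNFRSF18, a receptor of the tumour necrosis factor family, early only. The Jak-STAT signaling pathway had 6 of 12 genes called in each comparison, 4 of them in both, namely CSF3R, IL-12B, IL19 and the growth hormone gene GH1. In the GO population 28.1% of genes were called early and 23.2% late. The KEGG lists cover few genes and another range of identifiers, so these pathway counts cannot be set against those shares, and no difference was tested.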

How the data were processed

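RNA of 4 ovary libraries, 1 per group, was measured by digital gene expression RNA sequencing. Per the methods and labels, the authors trimmed reads with SeqPrep and Sickle, aligned them to galGal4 with TopHat, computed FPKM per gene and compared the ages of each sub-breed in Cuffdiff, where a gene passed on its fold change or its p-value; versions are not given in the sources used here. The deposited tables hold gene numbers and identifiers per GO term (Goatools) and KEGG pathway (KOBAS). Their p-value columns are the results of the authors' own tests and were not used.

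Identifiers were paired with names through the supplementary gene table of the study, whose expression values were not used. Of its 1539 named identifiers held here, 1291 were in the GO lists. The GRCg7b gene table matched 0 of the 6 receptor identifiers. Lists of the late GO table were broken at 44 places with 1 character lost at each. All 44 identifiers were completed from the only intact one that matched and sorted between its neighbours. The step was run on simulated breaks in the early lists. There the true identifier was always among the candidates, so a wrong completion could not arise and its rate was not tested. A gene was taken as called in a comparison if any list of that comparison named it. Calls, shares and Jaccard indices were computed in Python 3.11.15, and an interval in SciPy 1.17.1; no test was run, since genes are not replicates. The genes named were the receptors, 5 lists of related genes, leukocyte markers and the 2 nearest genes by Jaccard index, with ties in order of identifier. Members and lists were chosen with earlier results of these data known. The alternatives were single GO categories, filters on term size, identical lists counted once, broken identifiers dropped, one table alone, and all named genes.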

Additional observations from a re-analysis of the deposited data

How the results depend on the processing

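The number of receptors called late was 4 with the broken identifiers completed or dropped. The share of early-called genes also called late, 63.6% (95% Wilson interval 61.9 to 65.3%, counting error over genes only), was 63.5 to 64.1% under 4 alternatives and 65.5% with biological process terms only. The count of receptor-holding terms above the population share, 10 early and 13 late, was 9 and 12 with identical lists counted once. By construction it was lower in single categories: 4 early and 7 late with biological process terms only, 1 and 1 with cellular component terms only, and 5 and 5 with molecular function terms only. The 6 receptor pairs with an index of at least 0.5 were the same in number under every alternative run. The number of related genes called late, 19, could not change in its only alternative, all named genes. All 26 named related genes were already in the GO lists. Calls could not be taken from the KEGG tables, which hold none of the receptors. No paired analysis was possible because each group had 1 library, and no library could be left out for the same reason. Without levels per library, no filter on low values or normalization could be varied.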
